A study of Mus musculus with 12 samples.

Results

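Fibrocytes of the spiral ligament are the connective tissue cells of the lateral wall of the cochlea, and the expression of 8 of their genes was followed here in wild-type and *Gjb2* 35delG homozygous mice. The genes were *Coch*, *Otos*, *Pou3f4*, *Tbx18*, *Car3*, *Slc4a10*, *Slc4a11* and *Slc26a4*, taken by name from the 37432 genes of the expression table and read in all 12 libraries. Each name was carried by 1 gene, and all 8 passed the filter on low values (at least 1 FPKM in at least 2 libraries) that left 16215 genes to be tested.

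The cochlea of male mice at P14 was divided into apical, middle and basal turns, and the RNA of each turn was sequenced in 2 biological repeats per genotype. The 35delG homozygous mice, whose genotype GEO's labels give as KO, carried both *Gjb2* alleles with the deletion and came from embryonic stem cells by tetraploid complementation. Birth was by cesarean section and ICR females did the nursing, while age-matched wild-type males were bought, so genotype and origin cannot be told apart. How many mice, ears or stem cell lines went into a library is not given in the sources used here, and p-values measure only the spread between these libraries, which may be technical. Levels are FPKM, sequenced fragments corrected for transcript length and library size. They were divided by 1 scaling factor per library and are called scaled FPKM. Because they are per length, levels of different genes can be compared. The depth of the libraries is unknown. The table keeps only normalized values, so counting error cannot be given and error is measured only by the spread between repeats. Because the pieces were bulk tissue, fewer fibrocytes and less RNA per fibrocyte cannot be told apart.

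The spiral ligament lies behind the stria vascularis, the epithelium that secretes the potassium-rich endolymph. Its fibrocytes are joined by gap junctions of connexins, among them the products of *Gjb2* and *Gjb6*, and are known for taking up potassium and passing it on towards the stria. They are also known for the extracellular matrix that holds the lateral wall, and fibrocyte types differ in position and in the transporters and enzymes they carry. Root cells and spindle cells are epithelial cells at the edges of the stria that send processes into the ligament or lie beside it. Of the 8 genes, *Slc26a4* is known chiefly from these epithelial cells, so it marks the neighbourhood of the ligament more than the fibrocytes themselves.

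On the GRCm38 (mm10) build used by the table, the secreted matrix protein genes were *Coch* (ENSMUSG00000020953.17), at chr12:51593341-51605771 on the plus strand, and *Otos* (ENSMUSG00000044055.5), at chr1:92644218-92648841 on the minus strand. The transcription factor genes were *Pou3f4* (ENSMUSG00000056854.4), at chrX:110814280-110817207 on the plus strand, and *Tbx18* (ENSMUSG00000032419.8), at chr9:87702800-87731260 on the minus strand. *Car3* (ENSMUSG00000027559.5), the carbonic anhydrase gene, lay at chr3:14863538-14872523 on the plus strand. The transporter genes were *Slc4a10* (ENSMUSG00000026904.17) at chr2:62046462-62326730 on the plus strand, *Slc4a11* (ENSMUSG00000074796.10) at chr2:130684113-130697519 on the minus strand, and *Slc26a4* (ENSMUSG00000020651.8) at chr12:31519827-31559969 on the minus strand. All 8 are annotated as protein coding. *Tbx18* shares part of its span with *D030062O11Rik*, a gene on the opposite strand whose annotation awaits experimental evidence, and whether FPKM used the strand is not given in the sources used here.

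The upstream sequences of 3 genes are shown because the first 2 had the highest levels and the last had, in 1 library, the lowest level of all 8. They are the 250 bases before the start of the gene in RefSeq's annotation of GRCm38.p6, on the strand of the gene from 5′ to 3′. They span chr12:51593091-51593340 (*Coch*, plus strand), chr1:92648842-92649091 (*Otos*, minus strand) and chr12:31559985-31560234 (*Slc26a4*, minus strand). Capitals mark the letters TATAAA, which in many genes lie shortly before the start of transcription.
Coch: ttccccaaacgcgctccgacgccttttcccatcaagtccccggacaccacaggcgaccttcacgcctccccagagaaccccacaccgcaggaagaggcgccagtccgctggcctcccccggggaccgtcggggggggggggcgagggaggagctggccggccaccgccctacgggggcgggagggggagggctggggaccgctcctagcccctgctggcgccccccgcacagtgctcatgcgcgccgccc
Otos: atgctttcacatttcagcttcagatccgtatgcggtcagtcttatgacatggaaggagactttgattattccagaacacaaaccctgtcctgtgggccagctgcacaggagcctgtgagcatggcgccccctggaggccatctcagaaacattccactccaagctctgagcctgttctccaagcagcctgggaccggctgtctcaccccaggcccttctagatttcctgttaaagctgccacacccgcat
Slc26a4: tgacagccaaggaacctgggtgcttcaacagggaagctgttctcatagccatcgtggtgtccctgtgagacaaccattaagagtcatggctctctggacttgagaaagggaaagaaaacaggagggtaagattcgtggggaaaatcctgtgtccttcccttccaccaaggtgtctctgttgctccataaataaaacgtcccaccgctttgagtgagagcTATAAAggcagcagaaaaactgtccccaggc

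These sequences differed in base composition. The *Coch* sequence had 74.8% G or C and 24 CpG dinucleotides, against medians of 52.4% and 6 over all windows of the same table. The *Otos* sequence had 54.0% G or C and 5 CpG, and that of *Slc26a4* 49.6% and 4. Windows were found for 6 of the 8 genes, with 2 windows for *Slc4a10*. Each window was searched on both strands from 250 bases before to 50 bases after the start. The octamer ATGCAAAT, a site of POU factors, and AGGTGTGA, a T-box site, were in none of these 7 windows. They were in 1.735% and 1.275% of all 32851 windows. TATAAA, searched after the sequences were seen, was in 3 of the 7 windows (*Coch*, *Slc26a4* and 1 of those of *Slc4a10*) and in 13.62% of all windows. In the *Coch* window it lay outside the 250 bases shown.

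The levels of the genes were described next, although levels in bulk tissue cannot show that fibrocytes were their source. *Coch* encodes cochlin, a matrix protein abundant in the inner ear, and ranked 7 of all genes by its mean level. *Otos* encodes otospiralin, a small secreted protein of the ligament, and ranked 11. The median over the 6 wild-type libraries was 4108 scaled FPKM for *Coch* and 2848 for *Otos*, with no wild-type library below 3115 and 2115. *Car3* followed with a median of 195, then *Pou3f4* with 38.8, *Slc26a4* with 31.3, *Tbx18* with 21.7, *Slc4a11* with 4.73 and *Slc4a10* with 1.36. In wild-type the lowest *Coch* library lay below the highest *Otos* libraries, whereas *Car3* lay apart from both and from all lower genes. *Pou3f4*, *Slc26a4* and *Tbx18* overlapped in range, and *Slc4a10* and *Slc4a11* reached into it with the second wild-type basal library. *Slc4a11* did so with the first wild-type apical library too, at 15.5 beside a lowest *Tbx18* level of 13.8. Markers of skeletal muscle and of fat, tissues known for *Car3*, were low: their summed levels reached at most 9.03 scaled FPKM over 11 muscle genes and 29.1 over 8 fat genes.

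Before the genotypes are compared, genes of the stria have to be looked at, in which 2 libraries differed from the others of their genotype. *Kcne1*, a potassium channel subunit of the marginal cells of the stria, was at most 0.43 scaled FPKM in 5 of the 6 wild-type libraries and was listed at 0 in 3 of them. It was 60.8 in the second wild-type basal library. In homozygous mice *Kcne1* was between 35.9 and 121 in 5 libraries and was listed at 0 in the second basal one. *Dct*, an enzyme of pigment synthesis in the intermediate cells of the stria, was between 1.03 and 5.59 in the same 5 wild-type libraries. It was 442 in the second wild-type basal library, between 158 and 586 in 5 homozygous libraries and 0.06 in the second homozygous basal library. *Lrp2*, by contrast, which encodes megalin, was between 63.0 and 122 in all wild-type libraries. Both second basal libraries therefore differed from their own repeat in genes of the stria, beside which the ligament lies. In the apical and middle turns *Kcne1* and *Dct* were low in all wild-type and high in all homozygous libraries. There the comparison of genotypes is also one of pieces low and high in these strial genes. Whether this came from the cut of the pieces was not tested.

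The second homozygous basal library was also low in all fibrocyte genes but 1. Its *Otos* level was 4.43 scaled FPKM, its *Slc4a11* level 0.55 and its *Slc26a4* level 0.15, and the 8 genes summed to 517 where the other 11 libraries had between 2606 and 11704. *Slc4a10* was the exception at 48.2. The connective tissue gene *Dcn* was at 1152 in this library, above all others, so not all mesenchymal genes were low in it.

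The genotypes were compared within each turn, to see how these genes stood in a cochlea without a working *Gjb2* product. In the basal turn the mean level of *Coch* was 4.63-fold and that of *Otos* 6.72-fold lower in homozygous than in wild-type mice, while outside it the ratio of homozygous to wild-type means lay between 0.757 and 1.60 for both. In the apical and middle turns *Car3*, *Slc4a10* and *Slc4a11* had mean levels 4.46 to 56.9 times as high in homozygous as in wild-type mice. None of these differences passed the threshold of the test over all groups, and the libraries of several groups differed widely from their repeat.

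Levels of *Coch*, the gene of cochlin, were 4887 and 4196 scaled FPKM in the wild-type apical, 3848 and 5353 in the middle and 4020 and 3115 in the basal turn. In homozygous mice they were 3813 and 3061 in the apical, 3437 and 5470 in the middle, and 1116 and 425 in the basal turn. Both homozygous basal libraries thus lay below all 10 others, and the homozygous apical libraries lay below their wild-type counterparts. The basal log2 difference, homozygous minus wild-type, was −2.36 (standard error 0.62, adjusted p = 0.0324 from limma). This missed the threshold used here, an adjusted p under 0.01 together with a fold change over 2. In the apical turn it was −0.41 (adjusted p = 0.806) and in the middle turn −0.07 (adjusted p = 0.962). The basal mean was 3568 ± 640 (SD, n = 2) for wild-type and 770 ± 488 for homozygous mice. All log2 differences are on the log2(scaled FPKM + 1) scale.

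*Otos* was at 3098 and 2129 scaled FPKM in the wild-type apical, 3235 and 2115 in the middle, and 2598 and 3129 in the basal turn. The homozygous levels were 1743 and 2987 in the apical, 3510 and 5054 in the middle, and 848 and 4.43 in the basal turn. The genotypes overlapped in the apical turn, while the homozygous libraries were the higher pair in the middle turn and the lower pair in the basal one. The basal log2 difference was −5.39 (standard error 1.80, adjusted p = 0.0701 from limma), and the homozygous repeats of that turn differed 191-fold from each other. Without the second homozygous basal library the difference was −1.75, and without the first it was −9.04 (adjusted p = 0.000958), past the threshold, where 0.833% of all genes were called. Either way 1 library, here one 191-fold from its repeat, stands for the group, and its spread is taken from the other groups. The middle difference was 0.69 (adjusted p = 0.845).

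The transcription factor genes had narrower ranges. *Pou3f4* encodes a POU factor of the mesenchyme around the otic epithelium, and its loss causes X-linked deafness. Wild-type levels were 51.5 and 36.8 scaled FPKM in the apical, 38.4 and 39.3 in the middle and 53.3 and 30.7 in the basal turn. Homozygous levels were 51.9 and 53.6 in the apical, 39.6 and 51.5 in the middle and 22.8 and 9.29 in the basal turn. The homozygous libraries were the higher ones in the apical and middle turns, by small margins, and the lower ones in the basal turn. The log2 difference of *Pou3f4* was 0.27 in the apical (adjusted p = 0.791), 0.21 in the middle (adjusted p = 0.773) and −1.41 in the basal turn (standard error 0.39, adjusted p = 0.0380 from limma), so the basal difference did not pass.

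*Tbx18* encodes a T-box factor needed for the otic mesenchyme that becomes fibrocytes. In wild-type mice it was at 33.4 and 25.2 scaled FPKM in the apical, 16.9 and 18.1 in the middle and 26.1 and 13.8 in the basal turn. In homozygous mice it was at 43.0 and 36.5 in the apical, 25.8 and 40.8 in the middle and 15.4 and 4.21 in the basal turn. The genotypes did not overlap in the apical and middle turns, where the homozygous libraries were higher, and overlapped in the basal turn. The log2 differences of *Tbx18* were 0.44 (adjusted p = 0.726), 0.86 (adjusted p = 0.320) and −1.12 (adjusted p = 0.159 from limma).

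**Figure D1:**
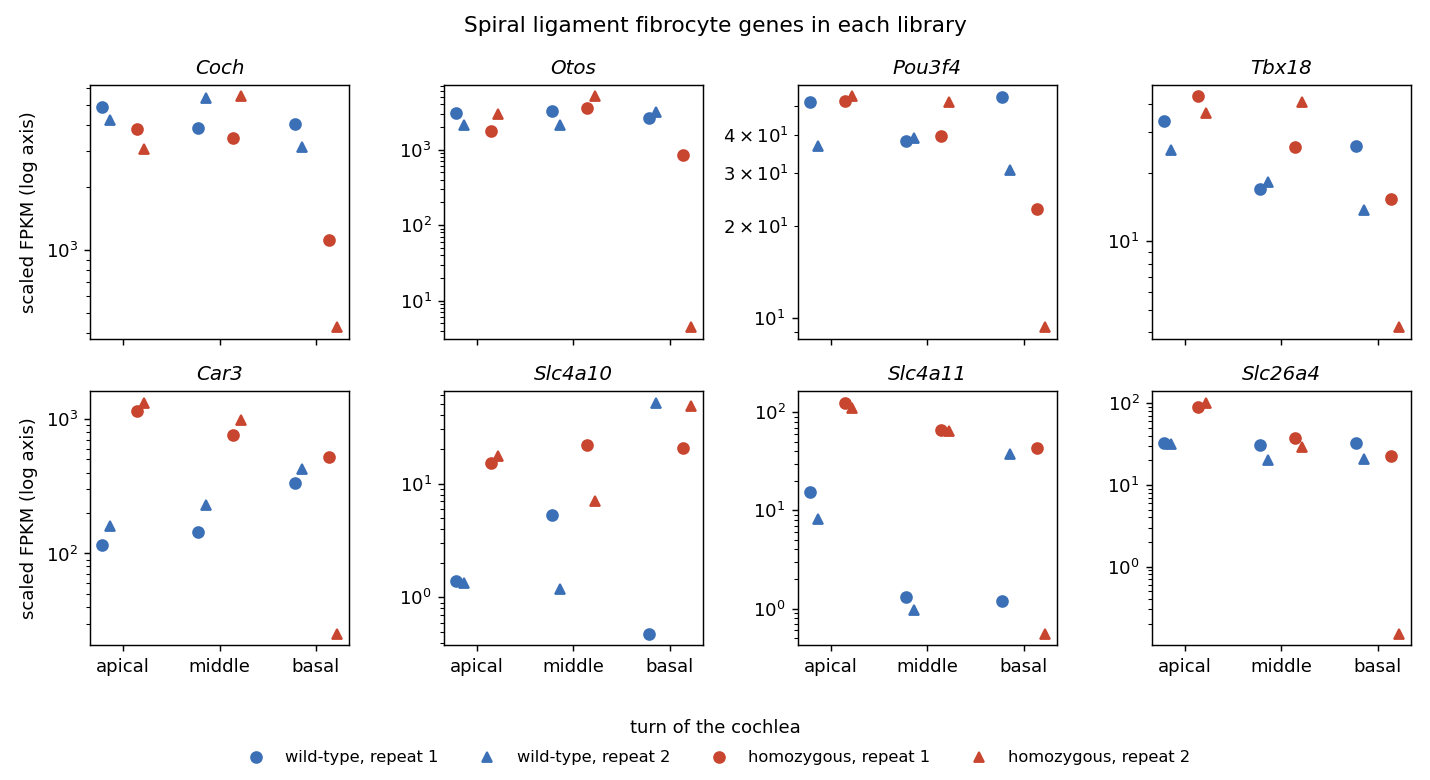
Scaled FPKM (log axis) of the 8 fibrocyte genes in the 3 turns of the cochlea, with 1 point per library, circles for the first and triangles for the second repeat, wild-type in blue and 35delG homozygous in red. *Coch* and *Otos* were at 1743 scaled FPKM or more outside the homozygous basal turn, and the second homozygous basal library was the lowest point of every gene except *Slc4a10*.

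*Car3*, which encodes a cytosolic carbonic anhydrase of low activity, did not overlap between the genotypes outside the basal turn. Its wild-type levels were 115 and 161 scaled FPKM in the apical, 144 and 229 in the middle, and 333 and 423 in the basal turn. Homozygous levels were 1152 and 1321 in the apical, 765 and 988 in the middle, and 518 and 25.3 in the basal turn. The ratio of the means, homozygous over wild-type, was 8.98 for the apical and 4.70 for the middle turn. The log2 difference was 3.17 in the apical (standard error 1.07, adjusted p = 0.193), 2.25 in the middle (adjusted p = 0.226) and −1.69 basally (adjusted p = 0.319 from limma). The basal value turned to 0.46 without the second homozygous basal library.

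*Slc4a11* encodes a membrane transporter of the bicarbonate transporter family, and its loss causes corneal dystrophy with hearing loss. It was at 15.5 and 8.13 scaled FPKM in the wild-type apical, 1.32 and 0.97 in the middle, and 1.18 and 37.8 in the basal turn. In homozygous mice it was at 125 and 110 in the apical, 66.4 and 64.0 in the middle, and 43.5 and 0.55 in the basal turn. The ratio of the means was 9.95 for the apical and 56.9 for the middle turn, whereas in the basal turn each genotype had 1 high and 1 low library. The log2 difference of *Slc4a11* was 3.27 (standard error 1.54, adjusted p = 0.337) in the apical, 4.95 (standard error 1.54, adjusted p = 0.0942) in the middle and −0.15 (adjusted p = 0.962 from limma) in the basal turn. The basal value rested on the second libraries: it was 1.93 without that of wild-type, 2.27 without that of homozygous mice and 4.35 without both.

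*Slc4a10* encodes a sodium-dependent bicarbonate transporter known from neurons as well as from fibrocytes. Its wild-type levels were 1.40 and 1.33 scaled FPKM in the apical, 5.33 and 1.19 in the middle, and 0.48 and 51.5 in the basal turn. Its homozygous levels were 15.2 and 17.7 in the apical, 22.1 and 7.02 in the middle, and 20.4 and 48.2 in the basal turn. All homozygous libraries were above all wild-type libraries except the second basal one, and the genotypes overlapped only in the basal turn. The log2 difference was 2.88 (adjusted p = 0.342), 1.87 (adjusted p = 0.430) and 1.88 (standard error 1.37, adjusted p = 0.386 from limma) from the apical to the basal turn. Without the second wild-type basal library the basal difference of *Slc4a10* was 4.45 (adjusted p = 0.00514), past the threshold, and without the first it was −0.69. The fit without the second called 11.3% of all genes, and the 1 wild-type basal library left in it is assumed to vary like the other groups.

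Neuron markers differed beside *Slc4a10* between the basal repeats. The summed level of 10 neuron genes, led by *Snap25*, *Nefh* and *Nefm*, was 10.6 and 833 scaled FPKM in wild-type basal libraries and 2839 and 3224 in homozygous ones. In the basal turn the sums had the same order as *Slc4a10* within each genotype, by a small margin in homozygous mice. Of the leading genes, *Nefh* had the opposite order there, at 647 and 498. *Snap25* (738 and 844) and *Nefm* (599 and 620) kept the order of the sum. Between the genotypes in the apical turn, the neuron sum was lower in homozygous libraries, at 170 and 330 against 636 and 947 in wild-type, whereas *Slc4a10* was higher. Outside the basal turn, the repeats of the sum and of *Slc4a10* had the same order in homozygous mice and the opposite order in wild-type. There the sums were 636 and 947 beside *Slc4a10* at 1.40 and 1.33 apically, and 1495 and 1701 beside 5.33 and 1.19 in the middle turn. The part of neurons in the level of *Slc4a10* was not tested.

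*Slc26a4* encodes pendrin, an exchanger of chloride, iodide and bicarbonate whose loss causes deafness with an enlarged vestibular aqueduct. It was at 32.9 and 32.0 scaled FPKM in the wild-type apical, 30.7 and 20.0 in the middle, and 32.4 and 20.7 in the basal turn. Homozygous levels were 90.8 and 102 in the apical, 37.9 and 29.0 in the middle, and 22.4 and 0.15 in the basal turn. Only the apical turn kept the genotypes apart, with a ratio of the means of 2.97. The log2 difference was 1.54 there (standard error 1.07, adjusted p = 0.521), 0.41 in the middle (adjusted p = 0.845) and −2.37 basally (adjusted p = 0.162 from limma). Without the first homozygous basal library the basal value of *Slc26a4* was −4.55 (adjusted p = 0.00130), past the threshold, and without the second −0.20. In the former the group is its second library alone, at 0.15, with a spread taken from the other groups.

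**Figure D2:**
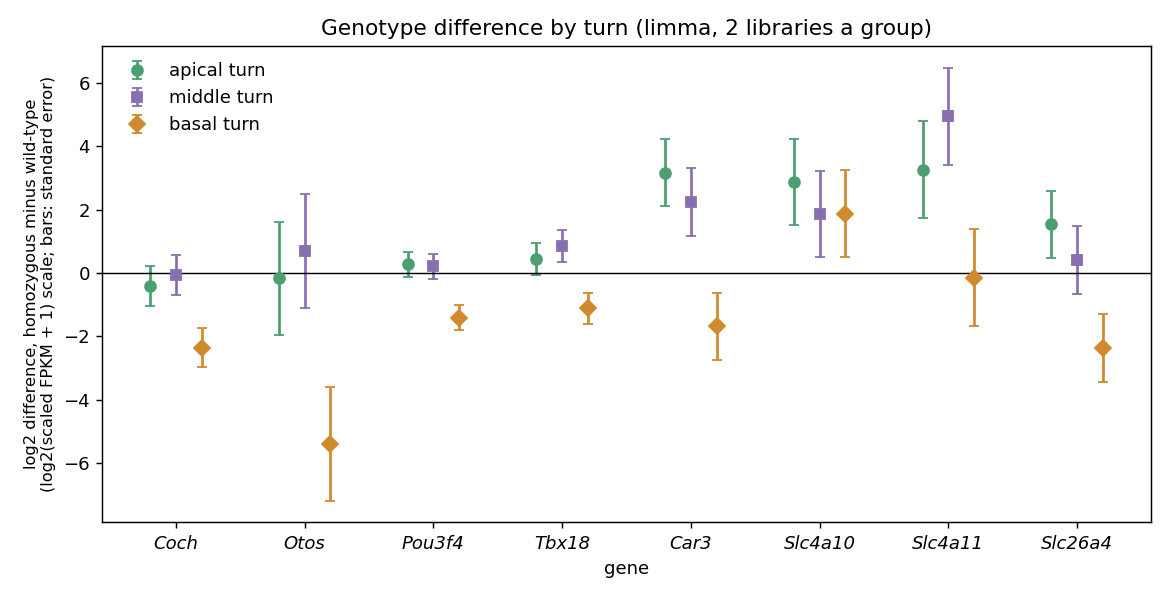
Log2 difference, homozygous minus wild-type, of each fibrocyte gene in the apical (green circles), middle (purple squares) and basal (orange diamonds) turn, with bars of 1 standard error from limma. In the apical turn 6 of the 8 differences were above 0 and in the middle turn 7, whereas 7 of the 8 basal differences were below 0.

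Between the genotypes, 0 of the 8 genes were called in any turn (apical, middle or basal), and 0 for the mean of the 3 turns. Of all genes tested, limma called 0.179% apically, 0.179% in the middle and 4.29% basally, and 0.376% for the mean. At an unadjusted p under 0.05 there was 1 in the apical turn (*Car3*), 1 in the middle turn (*Slc4a11*), 3 in the basal turn (*Coch*, *Otos* and *Pou3f4*) and 3 for the mean (*Coch*, *Slc4a10* and *Slc4a11*). Those thresholds were met by 16.4%, 25.4%, 32.4% and 18.6% of all genes. The median log2 difference of the 8 genes was 0.99 apically, 0.77 in the middle and −1.55 basally, beside −0.03, 0.04 and −0.02 over all genes. Averaged over the turns, the log2 difference was 2.69 for *Slc4a11* (adjusted p = 0.151), 2.21 for *Slc4a10* (adjusted p = 0.178), 1.25 for *Car3* (adjusted p = 0.331), −0.94 for *Coch* (adjusted p = 0.203) and −1.63 for *Otos* (adjusted p = 0.463). It was between −0.31 and 0.06 for *Pou3f4*, *Tbx18* and *Slc26a4*.

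The libraries of the genotypes did not overlap for 7 of the 8 genes in the apical turn, where 59% of all genes did not overlap. They did not overlap for 6 genes in the middle turn (59.5% of all genes) and for 3 in the basal turn (54% of all genes). The higher genotype was homozygous for 6 of the 7 apical genes, all but *Coch*, and for all 6 middle genes (*Otos*, *Pou3f4*, *Tbx18*, *Car3*, *Slc4a10* and *Slc4a11*). It was wild-type for the 3 basal genes, *Coch*, *Otos* and *Pou3f4*.

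The outcome of the test depended on which libraries shared the estimate of the spread. In a fit of the 4 apical libraries alone, 4 of the 8 genes passed, all higher in homozygous mice: *Car3* (adjusted p = 0.00847), *Slc4a10* (0.00324), *Slc4a11* (0.00912) and *Slc26a4* (0.00912), with the log2 differences given above. Of all genes, 0.574% passed in that fit. In fits of the middle or the basal libraries alone, 0 of the 8 genes and 0% of all genes passed, while 3 (*Slc4a11*, *Car3* and *Tbx18*) and 1 (*Pou3f4*) had an unadjusted p under 0.05, as 24.2% and 19.9% of all genes did. With all groups in 1 fit but without both second basal libraries, an alternative chosen after their levels were seen, *Slc4a11* was called in each turn (adjusted p = 0.00359 apically, 0.000991 in the middle and 0.00199 basally). *Car3* was then called in the apical turn (adjusted p = 0.00609) and for the mean of the turns (2.02, adjusted p = 0.00267). *Slc4a10* and *Slc4a11* were called for the mean as well (2.87, adjusted p = 0.00741, and 4.19, adjusted p = 0.000102). That fit called 0.407% of all genes apically, 0.802% in the middle and 8.49% basally, and 2.07% for the mean. In it each basal group has 1 library, assumed to vary like the other groups. The libraries left out were the only wild-type one with high *Kcne1* and the only homozygous one with *Kcne1* listed at 0. Among those kept, *Kcne1* was at most 0.43 scaled FPKM in wild-type and at least 35.9 in homozygous mice. Leaving them out thus parted the genotypes in this strial gene as well, and these calls are no separate evidence of a genotype difference.

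The genotype effect was also compared between turns. The difference of the effects, basal minus middle, was negative for 7 of the 8 genes, from −6.08 for *Otos* (adjusted p = 0.117) to −1.62 for *Pou3f4* (adjusted p = 0.0645), and 0.01 for *Slc4a10*. Basal minus apical it was negative for all 8, from −5.22 for *Otos* and −4.86 for *Car3* (adjusted p = 0.0692) to −1.55 for *Tbx18*, with *Slc4a10* nearer to 0. No gene of the 8 was called in either, nor for middle minus apical, where 8.91%, 0.796% and 0% of all genes were called in that order. At an unadjusted p under 0.05 there were 6, 3 and 0 of the 8, beside 37.7%, 28.4% and 8.05% of all genes. Of *Coch* and *Tbx18*, the basal minus middle values were −2.29 (adjusted p = 0.0935) and −1.97 (adjusted p = 0.0748 from limma). These comparisons share their basal libraries and are not independent of each other. Without the first homozygous basal library, *Otos*, *Car3* and *Slc26a4* were called in both basal comparisons, with basal minus middle values of −9.72, −6.09 and −4.95. That fit called 4.33% of all genes for basal minus middle and 0.839% for basal minus apical, with 1 homozygous basal library assumed to vary like the other groups. Without the second, the *Otos* value was −2.44.

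Along the wild-type cochlea, 0 of the 8 genes were called between turns, where limma called 0.0863% of all genes for middle minus apical, 0.0863% for basal minus apical and 0% for basal minus middle. None had an unadjusted p under 0.05 either. The largest wild-type difference was that of *Slc4a11*, −2.52 for middle minus apical (adjusted p = 0.366). *Car3* was higher in both basal than in all 4 other wild-type libraries, with a basal minus apical value of 1.46 (adjusted p = 0.444). In homozygous mice, 0 were called for middle minus apical, 0 for basal minus apical and 0 for basal minus middle, beside 0%, 4.06% and 4.66% of all genes. At an unadjusted p under 0.05 these were 0, 7 and 6 of the 8, beside 2.65%, 32.9% and 34.6% of all genes. The basal minus apical difference was −1.78 for *Pou3f4* (adjusted p = 0.0169), −2.14 for *Tbx18* (adjusted p = 0.0204), −4.23 for *Slc26a4* (adjusted p = 0.0274) and −2.31 for *Coch* (adjusted p = 0.0348). The basal minus middle difference of *Coch* was −2.65 (adjusted p = 0.0214). *Slc4a10* had the opposite sign in both, 0.90 and 1.25.

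Summed levels of strial genes were higher in the homozygous apical and middle libraries, where *Car3*, *Slc4a11* and *Slc4a10* and, in the apical turn, *Slc26a4* were also higher. The summed level of 5 marginal cell genes, among them *Lrp2*, *Kcne1* and *Esrrb*, was between 67.9 and 130 scaled FPKM in the wild-type libraries other than the second basal one, which had 210. It was between 130 and 402 in homozygous libraries other than the second basal one, which had 4.26. *Slc4a10* was at its highest homozygous level, 48.2, in that library. All 5 marginal genes had a positive log2 difference in both the apical and the middle turn, with medians of 3.46 and 2.89, and 0 were called. For 7 intermediate cell genes, among them *Dct*, *Kcnj10* and *Mlana*, the sums were 31.0 to 71.7 in wild-type and 566 in its second basal library, and 205 to 682 in homozygous mice and 41.9 in theirs. Of *Kcnj10*, which glia also express, the levels were 25.4 to 65.8 in all libraries. *Bsnd*, a chloride channel subunit of marginal cells named after its values were seen, was listed at 0 in 4 wild-type libraries, the first repeats of the apical and basal turns and the second repeats of the apical and middle turns.

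**Figure D3:**
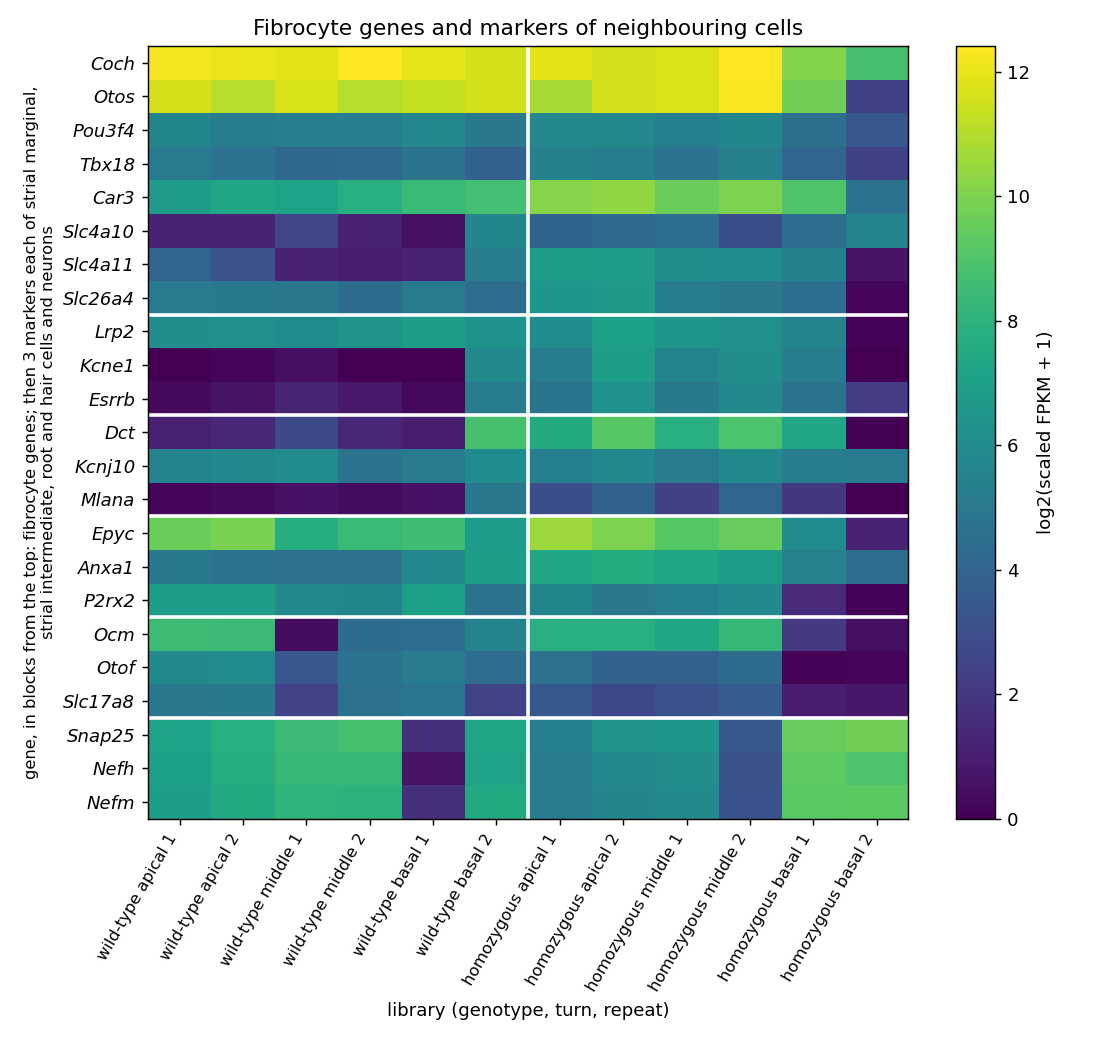
Log2(scaled FPKM + 1) of the fibrocyte genes (top block) and of the 3 markers of highest mean in each of 5 neighbouring cell types, with 1 column per library and wild-type on the left of the white line. *Kcne1*, *Esrrb* and *Mlana* were at most 1.53 scaled FPKM in 5 wild-type libraries, *Dct* and *Slc4a10* at most 5.59, and all were higher in the second wild-type basal library. In the second homozygous basal library these markers were at most 3.58, whereas *Slc4a10* was at 48.2.

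In each basal repeat the order of *Slc4a11* followed that of *Kcne1*: 1.18 beside 0 in the first and 37.8 beside 60.8 in the second wild-type library, and 43.5 beside 35.9 and 0.55 beside 0 in the homozygous ones. *Coch*, *Pou3f4*, *Tbx18* and *Slc26a4* did not follow this order in wild-type, where they were lower in the second basal library, the one with strial genes. *Slc4a10* did not follow it in homozygous mice, with 20.4 in the first and 48.2 in the second library. Outside the basal turn the repeats of *Slc4a11* and *Kcne1* had the same order only in the wild-type middle turn. The order was opposite in homozygous apical (125 and 110 beside 36.0 and 121) and middle libraries (66.4 and 64.0 beside 47.0 and 68.9). It was also opposite in wild-type apical libraries, at 15.5 and 8.13 beside 0 and 0.15. The part of the stria, or of the piece of lateral wall taken with it, in the levels of *Car3*, *Slc4a11*, *Slc4a10* and *Slc26a4* was not tested.

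Bone and blood genes also differed between the pieces, although 0 were called. In the apical turn all 8 bone genes had a positive log2 difference, with a median of 2.09, beside the higher *Car3*, *Slc4a10*, *Slc4a11* and *Slc26a4*. Their sum was 53.1 and 114 scaled FPKM in wild-type and 279 and 670 in homozygous apical libraries, and 328 and 2632 in the wild-type basal ones. All 5 erythroid genes had a negative basal difference, with a median of −3.00 and sums of 3173 and 4991 in wild-type against 435 and 522 in homozygous libraries, beside the lower *Coch*, *Otos* and *Pou3f4*. Their part in these levels was not tested.

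Root cells, the epithelial neighbours that share *Slc26a4*, were followed by 6 genes. *Epyc*, a matrix proteoglycan, was at 802 and 958 scaled FPKM in wild-type against 1497 and 988 in homozygous apical libraries, and at 374 and 111 against 61.8 and 1.39 in the basal turn. *P2rx2*, an ATP-gated channel, was at 131 and 26.6 in wild-type against 1.88 and 0.08 in homozygous basal libraries. Its log2 difference was −5.09 (standard error 0.68, adjusted p = 0.00505 from limma). It was the only gene of the 6 called there, beside 4.29% of all genes. The sum of the 6 genes was 280 to 1121 in wild-type libraries, and 34.2 in the second homozygous basal library, the one with *Slc26a4* at 0.15. *Anxa1*, another of the 6, was at 20.5 there.

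Levels of hair cell genes and of some supporting cell and tectorial membrane genes were also low in the homozygous basal turn, where *Coch*, *Otos* and *Pou3f4* were low. The sum of 10 hair cell genes, led by *Ocm*, *Otof* and *Slc17a8*, was 4.65 and 2.79 scaled FPKM in the homozygous basal libraries and between 18.7 and 543 in the 10 others. *Pou4f3*, *Otof* and *Gfi1* were called lower. The sum of 9 supporting and tectorial membrane genes was 36.3 and 18.9 there and between 439 and 2558 elsewhere, and *Otogl*, *Ceacam16*, *Otog* and *Otoa* were called lower. *Sox2* and *Prox1*, transcription factor genes of the list named after their values were seen, did not share the fall of the sum. *Sox2* was at 7.95 and 11.9 in wild-type against 7.88 and 9.34 in homozygous basal libraries, and *Prox1* at 0.28 and 1.01 against 11.99 and 3.84. The neuron genes summed to 10.6 and 833 in wild-type against 2839 and 3224 in homozygous basal libraries. Which cells the levels of *Sox2* and *Prox1* came from was not tested, so they do not show that supporting cells were kept. Of the 9 Schwann cell genes, *Prx* and *Egr2* were called higher in the basal turn, where 4.29% of all genes were called. The 9 genes summed to 1491 and 5699 scaled FPKM in wild-type against 9411 and 14923 in homozygous basal libraries. The part of the make-up of the pieces in the low levels of *Coch*, *Otos* and *Pou3f4* was not tested.

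Ion transport and coupling genes of the ligament, a list of 13 with 12 tested, gave 1 call, in the basal turn (4.29% of all genes there). The median log2 difference was 0.66, 0.50 and −0.37 from apical to basal. The call was *Kcnj16*, an inward rectifier potassium channel, at 128 and 47.9 scaled FPKM in wild-type basal libraries against 6.14 and 1.5 in homozygous ones (log2 difference −4.24, standard error 0.54, adjusted p = 0.00462 from limma). Its apical value of −1.62 had the same sign (adjusted p = 0.187). *Atp1b1*, a sodium pump subunit gene, was at 298 and 388 scaled FPKM in wild-type against 694 and 558 in homozygous basal libraries (log2 difference 0.87, adjusted p = 0.0510 from limma) and was not called.

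*Gjb2*, the mutated gene, was measured as the sum of fragments of either allele, which does not show the deletion and so does not check the genotype. It was at 434 and 256 scaled FPKM in wild-type against 126 and 58.6 in homozygous basal libraries, with a log2 difference of −1.94 (adjusted p = 0.0238 from limma). *Gjb6*, its partner in the gap junctions, was at 292 and 271 against 166 and 154 (−0.81, adjusted p = 0.0759). Both genes thus had the same sign there as *Coch*, *Otos* and *Pou3f4*, and neither was called. In the apical turn both were higher in homozygous libraries, *Gjb2* at 332 and 376 against 248 and 254 (0.49, adjusted p = 0.658) and *Gjb6* at 283 and 379 against 166 and 155 (1.03, adjusted p = 0.129). In the middle turn *Gjb2* was at 140 and 268 in wild-type against 256 and 451 (0.81, adjusted p = 0.319), with overlap, and *Gjb6* at 124 and 176 against 285 and 448 (1.27, adjusted p = 0.0450). The basal minus middle difference of the genotype effect was called for *Gjb6* (−2.08, adjusted p = 0.00747) and not for *Gjb2* (−2.75, adjusted p = 0.0195 from limma).

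Regulators of the otic mesenchyme, a list of 10 genes, gave 1 call, in the basal turn (4.29% of all genes there). Their medians were −0.02, 0.19 and −0.52 from apical to basal. *Tbx2*, a T-box gene of the same family as *Tbx18*, was at 62.8 and 28.8 scaled FPKM in wild-type against 11.7 and 5.16 in homozygous basal libraries, a log2 difference of −2.30 (adjusted p = 0.00911 from limma). *Tbx1* and *Efnb2* completed the 3 of highest level. Of 11 matrix genes listed for fibrocytes, 0 were called in any turn, with medians of 0.60, 0.66 and −0.11. *Dcn* (decorin) was at 591 and 597 in wild-type against 267 and 1152 in homozygous basal libraries (−0.10, adjusted p = 0.933), and *Col1a2* had a basal value of −0.90 (adjusted p = 0.319). The matrix genes therefore did not have the basal direction of *Coch* and *Otos* throughout: 7 of the 11 were negative and 4 positive. *Col1a2* was highest in the second wild-type basal (559) and the first homozygous middle library (1026). The bone gene *Bglap* was highest in the same libraries, at 1102 and 790. The part of bone in the levels of the matrix genes was not tested.

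The families of the 8 genes were followed to see which other members were present. Of the other 8 *Slc4* genes, 6 were tested and 0 called in any turn. *Slc4a2*, an anion exchanger, was the highest at 18.9 to 31.1 scaled FPKM over all libraries, so its highest and lowest libraries differed far less than those of *Slc4a10* (0.48 to 51.5) and *Slc4a11* (0.55 to 125). The *Slc26* family had 5 of 10 other genes tested. *Slc26a7* was at 119 and 19.7 in wild-type against 4.30 and 13.3 in homozygous basal libraries (−2.52, adjusted p = 0.0515). *Slc26a5*, the gene of the outer hair cell motor prestin, was called higher in the homozygous middle turn, at 0.03 and 0.88 in wild-type against 7.78 and 11.7 (2.93, adjusted p = 0.00889 from limma). The sum of 10 hair cell genes, *Slc26a5* among them, also differed there, at 18.7 and 88.6 in wild-type against 212 and 387. In wild-type apical libraries *Slc26a5* was at 27.1 and 27.5, above its level in every homozygous library. The part of hair cells in this call was not tested.

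Of 15 other carbonic anhydrase genes, 11 were tested, and 2 were called, both in the basal turn (4.29% of all genes there). *Car13* was at 68.6 and 49.4 scaled FPKM in wild-type against 19.7 and 24.9 in homozygous libraries (−1.35, adjusted p = 0.00842), and *Car11* at 11.5 and 11.6 against 26.1 and 24.2 (1.06, adjusted p = 0.00725 from limma). *Car14* and *Car2* were the highest after *Car3*, and *Car2* was higher in both homozygous libraries in the apical turn (49.8 and 46.8 against 96.0 and 167) and in the middle turn (53.2 and 41.3 against 169 and 101). Of the other *Pou3f* genes, *Pou3f1* was called lower in the middle turn (−2.00, adjusted p = 0.00190) and higher in the basal turn (1.70, adjusted p = 0.00208), and *Pou3f2* higher in the basal turn (2.04, adjusted p = 0.00484). In the basal turn *Pou3f1* and *Pou3f2* had the opposite sign to *Pou3f4*. Both stayed under 7 scaled FPKM, while *Pou3f3* was between 7.61 and 35.9.

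**Figure D4:**
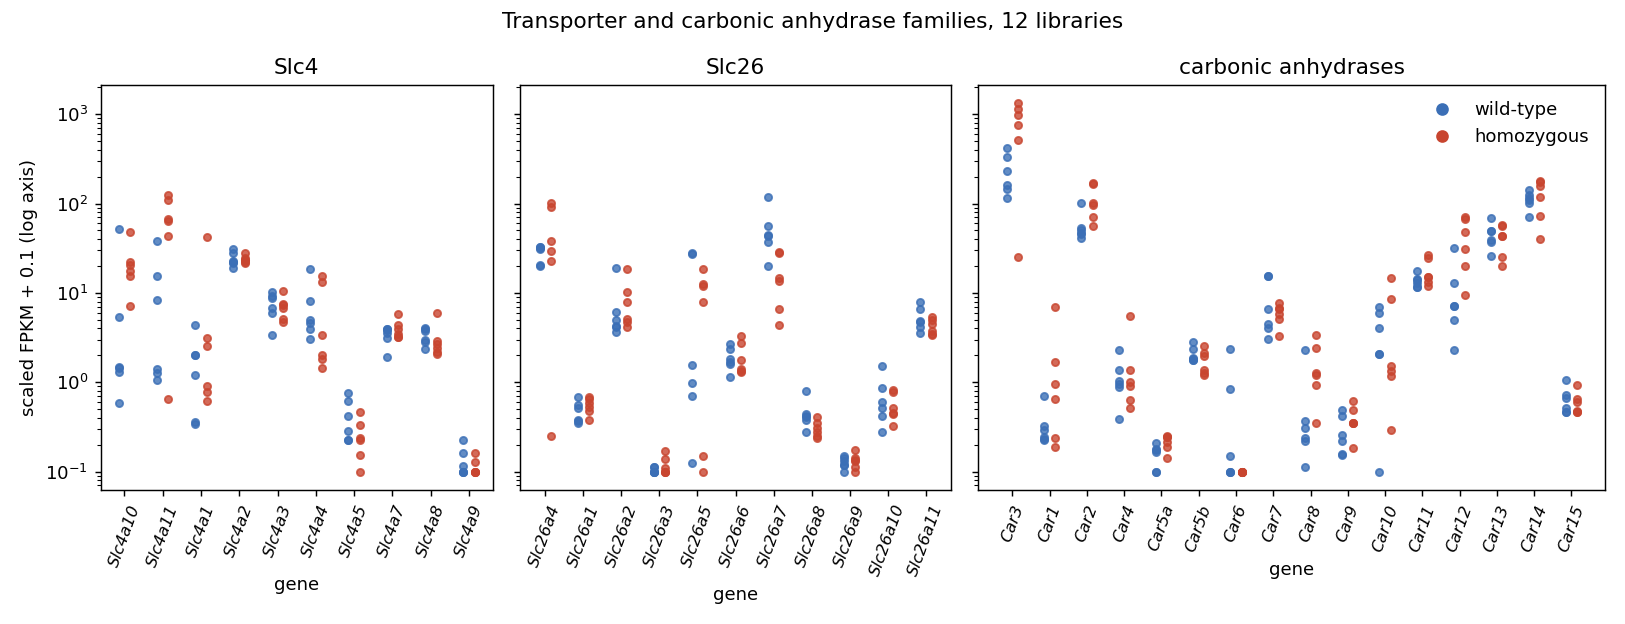
Scaled FPKM plus 0.1 (log axis) of the *Slc4*, *Slc26* and carbonic anhydrase genes, with 6 wild-type (blue) and 6 homozygous (red) libraries per gene. *Car3* was the highest carbonic anhydrase gene in most libraries, and *Slc4a11* and *Slc4a10* spread over a wider range than *Slc4a2*.

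The 8 genes differed in how alike their levels were over the 12 libraries, given as Pearson's r of log2(scaled FPKM + 1), a description that group differences and the second homozygous basal library take part in. *Pou3f4* and *Tbx18* had r = 0.94, and 0.83 without that library. *Coch* and *Otos* had r = 0.90 and 0.72, and 0.08 without both homozygous basal libraries, so their likeness came with that turn. *Car3* and *Slc4a11* had r = 0.81 and 0.78. *Coch* and *Slc4a10* ran in opposite directions, with −0.62 and −0.55.

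Among the 9464 tested genes whose mean reached 5 scaled FPKM, those most like *Coch* over the 12 libraries were *Dsp* (r = 0.97), *Vmo1* and *Tmprss3*. Those most like *Otos* were *Ucma* (0.98), *Lrp2* and *Prom2*, and those most like *Pou3f4* were *Slco1a5* (0.98), *Epcam* and *Prss8*. For *Tbx18* they were *Meltf* (0.99), *Tbx1* and *Cldn4*, for *Car3* *Enpep* (0.97) and *Etnppl*, and for *Slc4a10* *Abhd14a* (0.94), *Prps2* and *Penk*. For *Slc4a11* they were *Ablim3* (0.96), *Kalrn* and *Fat2*, and for *Slc26a4* *Sel1l3* (0.95), *Slc44a3* and *Meltf*. Without the second homozygous basal library, the first of each list was the same for *Pou3f4* and *Tbx18* and another gene for the other 6.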

How the data were processed

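RNA of cochlear pieces (apical, middle and basal) from wild-type and homozygous mice was sequenced by the authors as paired ends, with 2 repeats a group. By the submitters' processing notes the tools were fastp 0.20.0, STAR 2.7.3a, featureCounts 2.0.0, StringTie 2.0 and DESeq2 1.30.0 on mm10. The authors deposited FPKM per gene, and read counts were not used here. The deposited FPKM have no steps of whole reads, so depth is unknown, and 0 is reported only as listed.

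Each library was scaled by its median ratio to the geometric mean of 11552 genes that reached 1 FPKM throughout (factors 0.917 to 1.06). After a filter (1 FPKM in 2 libraries), 16215 genes entered a two-sided limma fit (version 3.58.1, R 4.3.3) of log2(scaled FPKM + 1), with 6 group means, a variance trend and Benjamini-Hochberg adjustment over all genes. Calls needed an adjusted p below 0.01 with a fold change above 2. Fold changes on this scale are understated for low genes. Lists were described by counts and medians, with no test.

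The fibrocyte genes and all lists were chosen with earlier results of these data known. Named genes were the fibrocyte genes, *Gjb2* and *Gjb6*, at most the 3 genes of highest mean in each list, genes of a list that were called, and up to 3 most like each fibrocyte gene. Results of some genes under this rule are not reported here. Lists of cartilage, macrophage and endothelial genes gave 0 calls between the genotypes in any turn. Alternatives were other pseudocounts, filters, scalings and thresholds, no trend, library weights, a block by repeat number, fewer libraries, and, chosen after seeing the data, both second basal libraries left out. Repeat numbers are not stated to link libraries.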

Additional observations from a re-analysis of the deposited data

How the results depend on the processing

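Of the 8 fibrocyte genes, 0 were called in each of the 13 comparisons, and this count held under pseudocounts of 0.1 and 0.01, no filter, FPKM as deposited, an equal sum, quantile normalization and library weights. With a replicate block (repeat number as a term) it was 0 as well. The repeat numbers gave no clear pairing across genotypes: deviations of same-numbered wild-type and homozygous libraries of a turn correlated at −0.07, −0.01 and 0.21. Between turns of a genotype they correlated at −0.41 (homozygous apical and middle) to 0.27 (homozygous apical and basal). Whether a number links the turns of the same animals cannot be told from these values.

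Counts that changed were these. Apical: 4 with its own libraries alone. Basal: 2 at an adjusted p under 0.05 (*Coch* and *Pou3f4*). Homozygous basal minus apical: 4 at 0.05. Homozygous basal minus middle: 4 at 0.05, 1 with a filter of 5 FPKM and 1 without the trend. Without both second basal libraries the counts were 2 (apical), 1 (middle), 1 (basal), 3 (mean of turns) and 1 (homozygous basal minus apical). With single libraries left out, the counts ranged from 0 to 1 (apical), 0 to 3 (basal), 0 to 1 (mean), 0 to 3 (both basal effects compared with other turns), 0 to 5 (homozygous basal minus apical) and 0 to 3 (homozygous basal minus middle). The homozygous basal counts of 5 and 3 and the basal counts of 3 came without the first homozygous basal library.

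Some log2 differences turned sign, and the cause was not tested. *Coch* in the middle turn was 0.11 as deposited, 0.053 with equal sums, 0.17 after quantile normalization, and −0.40 to 0.27 with single libraries left out. *Slc4a10*, basal minus middle effect, was −0.11 as deposited and −0.13 after quantile normalization. Without both second basal libraries, basal *Car3* was 0.64, basal *Slc4a11* 4.35, mean *Slc26a4* 0.48, and the basal minus apical effects of *Slc4a10* and *Slc4a11* 0.98 and 1.08. With single libraries left out, *Otos* ranged from −0.56 to 0.22 (apical), *Car3* from −3.84 to 0.46, *Slc4a10* from −0.69 to 4.45 and *Slc4a11* from −2.57 to 2.27 (basal), *Tbx18* from −0.22 to 0.33 and *Slc26a4* from −0.87 to 0.58 (mean), and *Slc4a10* from −3.57 to 1.58 (basal minus apical effect) and −2.56 to 2.59 (basal minus middle effect). No other of the 48 differences changed sign under any of these alternatives. Without read counts, what depth limits cannot be given.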
